A study of Rattus norvegicus with 15 samples.

Results

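Lgals3, P2ry6, Cd68, Gpnmb and Cd14 were followed array by array in the nucleus accumbens of rats, the ventral part of the striatum, which is known for its role in reward and drug seeking. All 5 of the genes had a probe set with a single platform symbol, out of 14497 genes with such a probe set, and all 5 passed a filter on low values that left 11778 genes for testing. Each of the 5 had 1 probe set. They were proposed as genes of activated microglia with earlier group comparisons of the same arrays in view. In those, Lgals3 had been brought forward for its difference between 1C and 1W and between 30C and 1C. The genes were thus chosen by values of the 1C arrays among others, and differences of the 5 genes that involve those arrays are given as a description with no test.

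The 15 arrays came from male Sprague-Dawley rats in 5 groups of 3. Rats in 4 of the groups self-administered cocaine (0.75 mg/kg per infusion, with a light cue) for 6 hours a day over 10 days, followed by forced abstinence. Group 30C had 30 days of withdrawal and then an extinction test of cue-induced cocaine seeking, and group 30W had 30 days of withdrawal without it. Group 1C had 1 day of withdrawal and the test, and group 1W had 1 day of withdrawal without it. Saline rats (Sal) self-administered saline under the same conditions, and their labels give neither a withdrawal time nor a test. All rats had a jugular catheter. Neither the ages of the rats, nor the time from the test to tissue collection, nor whether an array held RNA of 1 rat or of several is given in the sources used here. P-values therefore measure only the spread between these samples, which may be technical.

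Microglia are the resident macrophages of the brain. In the resting state they carry purinergic and chemokine receptors such as P2ry12 and Cx3cr1, and on activation they lower these and raise genes of phagocytosis, lysosomes and lipid handling. Lgals3 encodes galectin-3, a sugar-binding lectin of activated microglia and macrophages that other cells can also make. P2ry6 encodes the UDP receptor, which in microglia triggers phagocytosis. Cd68 encodes a lysosomal glycoprotein of macrophages, Gpnmb a transmembrane glycoprotein induced in lipid-laden and phagocytic macrophages, and Cd14 the co-receptor that presents lipopolysaccharide to the Toll-like receptor Tlr4.

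Levels are log2 intensities made by the authors with RMA, so a difference of 1 is a doubling. Correlations between pairs of arrays lay between 0.9929 and 0.9967. Of 12 markers of medium spiny neurons, the principal neurons of the striatum, 11 were matched and all 11 passed the filter, as did all 17 matched of 20 markers of homeostatic microglia. Array 1C replicate 2 stood apart in the chemokine genes Ccl2 (9.75, against 5.86 to 6.22 on the other 14 arrays) and Cxcl10 (9.28), though Cxcl10 was also high on 30W replicate 1 (8.51) and 30W replicate 3 (8.42), against at most 6.75 on the remaining arrays. The differences of Lgals3, P2ry6, Cd14 and Gpnmb between 1C and 1W are given with and without 1C replicate 2. For related genes and gene lists no difference without that array is given. Arrays hold whole tissue, so fewer cells of a type and less RNA per cell cannot be told apart.

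Lgals3 was highest on the 3 arrays of rats tested after 1 day of withdrawal. It was at 6.00, 6.03 and 6.31 on the 30C arrays, at 6.10, 6.09 and 6.25 on the 30W arrays, at 6.41, 6.45 and 6.50 on the 1C arrays, at 6.02, 6.10 and 5.99 on the 1W arrays, and at 5.98, 6.04 and 6.03 on the Sal arrays. Every 1C array lay above all 12 other arrays, with a gap of 0.10 between the lowest 1C array and the highest other one, 30C replicate 3. Such a separation of the 1C arrays from all others was found in 28 of the 11778 genes (0.238%). The same count was 27 for 30C, 52 for 30W, 70 for 1W and 13 for Sal. Among the 28 genes the gap of Lgals3 was the 2nd widest, after that of Sfrp1, which encodes a secreted Wnt antagonist. Lgals3 was brought forward for its 1C values, so nothing is read from this share or rank. On all 15 arrays Lgals3 lay above the 30th percentile and below the median of the array, in the lower part of the measured range. The groups averaged 6.11 ± 0.17 in 30C, 6.15 ± 0.09 in 30W, 6.45 ± 0.04 in 1C, 6.04 ± 0.06 in 1W and 6.02 ± 0.03 in Sal (SD, n = 3 each).

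**Figure D1:**
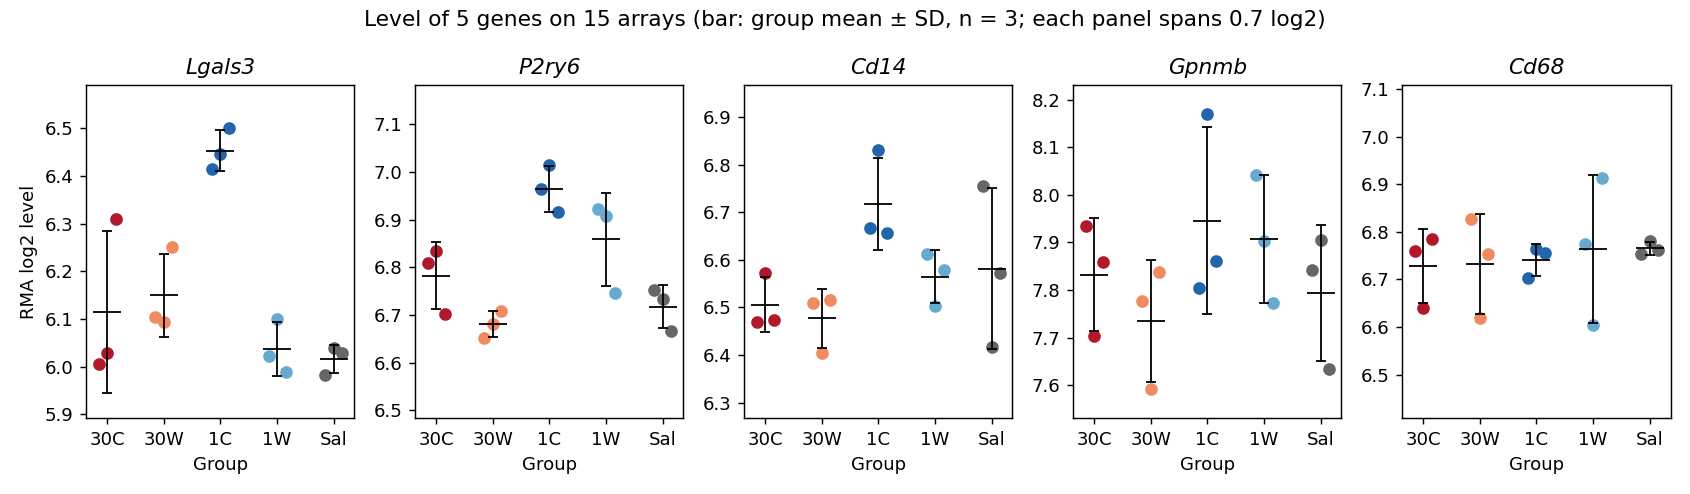
RMA log2 level of each gene (vertical axis, each panel spanning 0.7) on the 15 arrays by group (horizontal axis), with points for arrays and bars for the group mean ± SD (n = 3). Lgals3 on the 1C arrays (6.41 to 6.50) lies above all other arrays, Cd68 group means lie between 6.73 and 6.76, and Gpnmb and Cd14 are highest on 1C replicate 2 (8.17 and 6.83).

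As a description, Lgals3 was higher in 1C than in 1W by 0.42 (SE 0.07), a 1.34-fold difference, and higher in 1C than in Sal by 0.44 (SE 0.07). It was lower in 30C than in 1C, with a log2 difference of -0.34 (SE 0.07). Without 1C replicate 2, the array with high chemokine genes, the difference between 1C and 1W was again 0.42. Without 30C replicate 3 the difference between 30C and 1C was -0.44. The order of the group means after 1C was 30W, 30C, 1W and Sal, and among these neighbours the arrays overlapped in every step, although the 30W arrays all lay above the Sal arrays (6.47% of genes tested).

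At 30 days the test was not accompanied by the same separation. Lgals3 differed between 30C and 30W by -0.03 (SE 0.07), and the arrays overlapped. That value was -0.13 without 30C replicate 3 and 0.02 without 30C replicate 1. The difference of that effect from the one at 1 day was -0.45 (SE 0.10) on the log2 scale, a value that contains the 1C against 1W difference and carries no test here. In 30W it differed from 1W by 0.11 (SE 0.07; limma, adjusted p = 0.63) and from Sal by 0.13 (SE 0.07; limma, adjusted p = 0.72). Without 30W replicate 3 these values were 0.06 and 0.08, and further quantile normalization gave 0.04 for 30W against 1W.

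P2ry6 had its highest group mean in 1C (6.97 ± 0.05) and its next in 1W (6.86 ± 0.10; SD, n = 3 each), and its lowest in 30W (6.68 ± 0.03; SD, n = 3). Its levels were 6.81, 6.84 and 6.70 in 30C, 6.65, 6.68 and 6.71 in 30W, 6.96, 7.01 and 6.92 in 1C, 6.92, 6.91 and 6.75 in 1W, and 6.75, 6.73 and 6.67 in Sal. The 1C arrays lay above all Sal, 30W and 30C arrays and overlapped with 1W only in that 1C replicate 3 and 1W replicate 1 were both at 6.92. In 1C it exceeded Sal by 0.25 (SE 0.06) and 1W by 0.11 (SE 0.06), and 30C lay below 1C, with a log2 difference of -0.18 (SE 0.06). The difference between 1C and 1W was 0.08 without 1C replicate 2 and 0.05 without 1W replicate 3, and 0.23 with the mean of oligodendrocyte markers as a covariate. P2ry6 was also lower in 30W than in 1W, with no overlap and a log2 difference of -0.18 (SE 0.06), and it did not pass (limma, adjusted p = 0.37). In the same comparison 15 of 17 homeostatic microglia markers (median -0.16) and all 11 oligodendrocyte markers (median -0.15) were lower in 30W. With those lists' means as a covariate, one at a time, the P2ry6 difference was -0.09 and -0.08. In 1W it differed from Sal by 0.14 (SE 0.06), likewise did not pass, and differed by 0.06 and 0.07 with the same covariates.

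Cd14 had its highest group mean in 1C, but not on every array. It was at 6.47, 6.57 and 6.47 in 30C, 6.51, 6.40 and 6.52 in 30W, 6.67, 6.83 and 6.66 in 1C, 6.61, 6.50 and 6.58 in 1W, and 6.75, 6.42 and 6.57 in Sal. The 1C arrays lay above those of 1W, 30W and 30C, while Sal replicate 1 lay above the lower 2 of the 1C arrays. Cd14 in 1C differed from 1W by 0.15 (SE 0.08) and from Sal by 0.14 (SE 0.08), and 30C differed from 1C by -0.21 (SE 0.08). Leaving out 1C replicate 2 gave 0.10 in place of 0.15 against 1W. Sal, with an SD of 0.17, spread more than any other group in this gene, and the difference between 1C and Sal was 0.05 without Sal replicate 2 and 0.22 without Sal replicate 1.

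Gpnmb differed by up to 0.37 between arrays of 1 group, while its group means lay between 7.74 in 30W and 7.95 in 1C. It was at 7.94, 7.70 and 7.86 in 30C, 7.78, 7.59 and 7.84 in 30W, 7.81, 8.17 and 7.86 in 1C, 8.04, 7.90 and 7.77 in 1W, and 7.84, 7.90 and 7.63 in Sal. The groups overlapped in each of the 8 comparisons of 2 groups. The highest value belonged to 1C replicate 2, and without that array the difference between 1C and 1W was -0.07 in place of 0.04 (SE 0.11).

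Cd68 was nearly level across groups. It was at 6.76, 6.64 and 6.78 in 30C, 6.83, 6.62 and 6.75 in 30W, 6.70, 6.76 and 6.75 in 1C, 6.77, 6.60 and 6.91 in 1W, and 6.75, 6.78 and 6.76 in Sal. Its group means lay between 6.73 and 6.76, and its 8 differences between groups lay between -0.04 and 0.00, each with an SE of 0.07. The groups overlapped in each comparison. For 30W against 1W, a comparison without 1C, the 95% interval of its difference ran from -0.19 to 0.13. Differences within that interval are not excluded for Cd68 with 3 arrays a group.

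**Figure D2:**
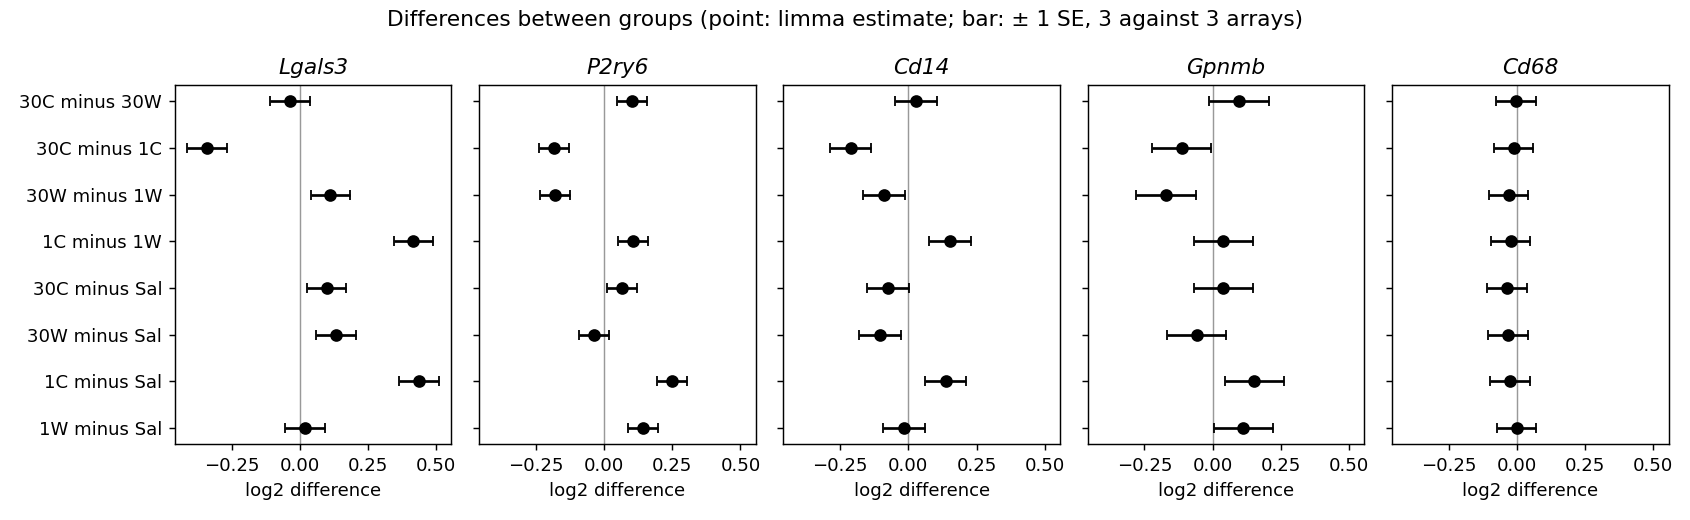
Log2 difference between 2 groups (horizontal axis) for each gene and each of 8 comparisons (vertical axis), as limma estimates ± 1 SE from 3 against 3 arrays. Lgals3 reaches 0.42 and 0.44 for 1C against 1W and Sal, and Cd68 stays between -0.04 and 0.00.

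In limma with Benjamini-Hochberg adjustment over all 11778 genes, 0 of the 5 genes passed at 0.05 in the 5 comparisons without 1C, and 0 genes of the whole table passed in any of the 8 comparisons or in the interaction (0%). In the comparisons with 1C, the arrays alone were set beside each other. The 1C arrays lay above all 1W arrays in 2 of 5 genes, Lgals3 and Cd14 (3.57% of all genes). All 30C arrays lay below all 1C arrays in 3 of 5, Lgals3, P2ry6 and Cd14 (5.87%). The 1C arrays lay above all Sal arrays in 2 of 5, Lgals3 and P2ry6 (3.97%). These comparisons hold the values the genes were selected on, so nothing is read from the counts.

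Among the comparisons without 1C, the count with an unadjusted p under 0.05 was 1 of 5 for 30W against 1W (10.1% of all genes), where P2ry6 was the 1 gene with all 30W arrays below all 1W arrays (10.5%). It was 1 of 5 for 1W against Sal (4.87%), and 0 of 5 for 30C against 30W (3.93%), 30C against Sal (5.06%) and 30W against Sal (7.6%). A count of 1 of 5 beside a background of 10.1% is not a result about these genes. Over the 25 values of the 5 comparisons without 1C the lowest adjusted p was 0.37, for P2ry6. The median log2 difference of the 5 genes was -0.09 for 30W against 1W, against -0.02 over all genes tested. For 1C against 1W it was 0.11, against 0.00 over all genes. That comparison holds values the genes were selected on, so nothing is read from its median.

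Agreement between the 5 genes over the arrays was uneven. Across the 15 arrays P2ry6 and Gpnmb correlated with Pearson r = 0.65 (Spearman rho = 0.59), and P2ry6 and Cd14 with r = 0.62 (rho = 0.61). Without the 2 arrays with P2ry6 farthest from its median, these values of r were 0.60 and 0.36. With group means removed they were 0.49 and 0.26. Lgals3 correlated with P2ry6 at r = 0.50 (rho = 0.22), with Cd14 at 0.40 (rho = 0.11) and with Gpnmb at 0.32 (rho = 0.15). Leaving out the 2 arrays with Lgals3 farthest from its median, both from 1C, brought these 3 values of r to 0.19, -0.02 and -0.01. Removing group means gave -0.27, -0.19 and 0.18 in the same order. Cd68 correlated with Lgals3 at -0.06 (rho = -0.11) and with P2ry6 at -0.25 (rho = -0.27). These 15 points share their groups and the normalization, and the values are descriptions.

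Of the 11777 other genes tested, 11 reached r = 0.7 with Lgals3. The 5 most alike were Plod2 (r = 0.76, rho = 0.66), a collagen lysyl hydroxylase gene, Prpf4b (r = 0.75, rho = 0.40), a splicing kinase gene, Sesn1 (r = 0.74, rho = 0.66), a stress-induced sestrin, Vim (r = 0.74, rho = 0.57), which encodes the intermediate filament vimentin of glia, endothelium and fibroblasts, and Nfkb2 (r = 0.74, rho = 0.58), a subunit gene of NF-kappaB. Vim was at 11.41, 11.26 and 11.19 on the 1C arrays and at 10.76, 10.94 and 10.74 on the 1W arrays. Its 1C arrays lay above all 12 others, with the next at 11.19 in Sal replicate 1. It differed between 1C and 1W by 0.47 (SE 0.16), which did not pass. When group means were removed first, the 5 most alike were Tbx3, Maf1, Mon1a, Lamb2 and Gchfr, with r between 0.86 and 0.89. For P2ry6 the highest r over the arrays was that of Tpm4, a tropomyosin gene, at 0.81 (rho = 0.81), followed by Msn, which encodes the membrane-cytoskeleton linker moesin, at 0.80 (rho = 0.72).

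Related genes were then set beside the 5 genes, from lists fixed for their known roles. No member of the 7 lists passed over all genes in any comparison. Of 30 other genes of activated microglia, 28 were measured, and 0 rose and 0 fell in 1C against 1W, with 18 positive, 10 negative and a median log2 difference of 0.05. In 30C against 1C 5 were positive and 23 negative, with a median of -0.09, against -0.01 over all genes, and on 1C replicate 2 the list's mean deviation was 0.21, against 0.04 and -0.03 on the other arrays of that group. Over the 15 arrays Lgals3 correlated with the list's mean at r = 0.51 (rho = 0.41), and at 0.16 once group means were removed. In 1C against 1W, Vim and Cybb, the gene of a phagocyte oxidase subunit, had the largest differences, 0.47 (SE 0.16) and 0.26 (SE 0.15). Cybb stood at 7.25, 7.85 and 7.07 on the 1C arrays and at 7.22, 7.08 and 7.09 on the 1W arrays, with the high value on 1C replicate 2 alone. Spp1, which encodes osteopontin, was at 0.10 (SE 0.11) and Trem2, a lipid-sensing microglial receptor that galectin-3 can bind, at -0.22 (SE 0.10).

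Homeostatic microglia genes went both ways between 1C and 1W. Of 17 measured, 8 were positive and 9 negative in 1C against 1W, with a median of -0.02. The fractalkine receptor gene Cx3cr1 was at 10.41, 10.24 and 10.31 in 1C, and at 10.56, 10.48 and 10.46 in 1W, a log2 difference of -0.18 (SE 0.05). Gpr34, a lysophosphatidylserine receptor gene, was at -0.29 (SE 0.08), and Fcgr2b, an inhibitory Fc receptor gene, at 0.35 (SE 0.15) with levels of 7.02, 7.67 and 7.04 on the 1C arrays. P2ry12 was at -0.16 (SE 0.10), Tmem119 at 0.00 (SE 0.09) and Aif1, the gene of the microglial protein Iba1, at -0.02 (SE 0.07). None of these passed.

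**Figure D3:**
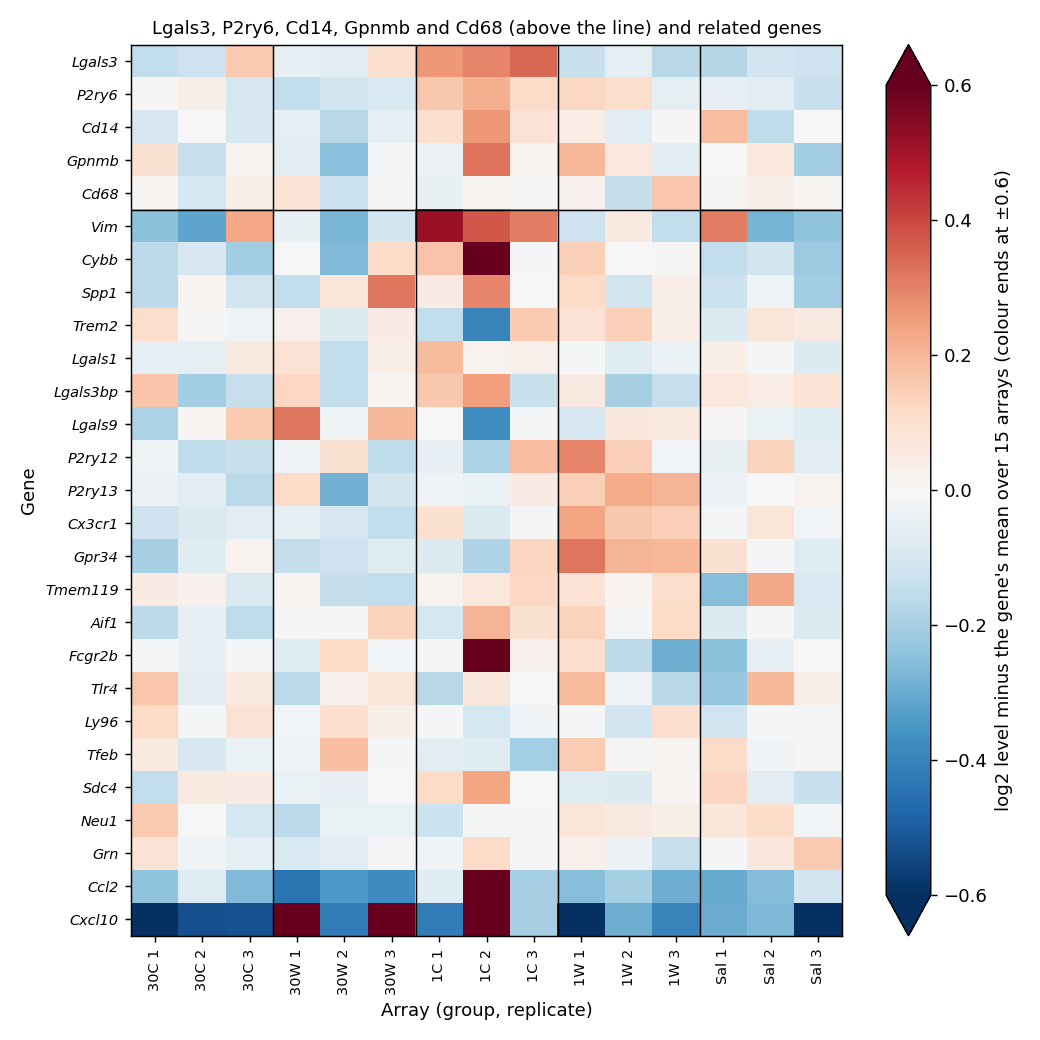
Log2 level minus the gene's mean over the 15 arrays (colour, ending at ±0.6) for the 5 genes and 22 related genes (rows) on each array (columns, by group). Lgals3 and Vim are above their means on all 3 1C arrays, while Cybb, Fcgr2b, Ccl2 and Cxcl10 are far above theirs on 1C replicate 2.

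Other galectins lay near 0 or went both ways. In the list of galectins and partners, 14 of 17 genes passed the filter, and in 1C against 1W 7 were positive and 7 negative, with a median of -0.01. Lgals1, which encodes galectin-1, was at 8.97, 8.81 and 8.81 in 1C and at 8.78, 8.71 and 8.75 in 1W, a difference of 0.12 (SE 0.07). Lgals9 was at -0.14 (SE 0.11), and the galectin-3 binding protein gene Lgals3bp at 0.19 (SE 0.11). None of these passed.

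Among 9 tested genes of P2Y receptors and nucleotide handling, 5 were positive and 4 negative in 1C against 1W, with a median of 0.01, and P2ry13 was at -0.19 (SE 0.08). In the CD14 and TLR4 pathway 12 of 18 were positive, with a median of 0.04. Tlr4 was at -0.03 (SE 0.11) and its partner Ly96 at -0.04 (SE 0.06). Ccl2 and Cxcl10 had the largest differences in that pathway, 1.31 (SE 0.66) and 1.06 (SE 0.61), with 1C replicate 2 as the high array. Of 22 tested lysosome genes 8 were positive and 14 negative (median -0.02), with Neu1, a sialidase gene, at -0.10 (SE 0.06) and Grn, the progranulin gene, at 0.08 (SE 0.06). Of 4 tested genes linked to the MITF and TFE factors that drive Gpnmb, 1 was positive and 3 negative (median -0.06), with Tfeb at -0.17 (SE 0.07) and the syndecan gene Sdc4 at 0.17 (SE 0.08).

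Marker lists were summarised for each array. The mean deviation of 17 homeostatic microglia markers was between -0.06 and -0.03 in 30C, between -0.05 and -0.04 in 30W, between 0.01 and 0.14 in 1C, between -0.01 and 0.16 in 1W, and between -0.07 and -0.01 in Sal. With that mean as a covariate, Lgals3 differed between 1C and 1W by 0.42, as without it. Other genes moved under that covariate. P2ry6 differed by -0.11 for 30C against 1C in place of -0.18, and by 0.17 for 1C against Sal in place of 0.25. Gpnmb changed sign, to 0.09 for 30W against 1W in place of -0.17, to -0.08 for 1C against Sal in place of 0.15, to 0.12 for 30C against 1C in place of -0.11, and to -0.14 for 1W against Sal in place of 0.11. Over the 15 arrays the mean of these markers correlated with P2ry6 at r = 0.78 (rho = 0.65), with Gpnmb at 0.76 (rho = 0.68), with Cd14 at 0.42 (rho = 0.20), with Lgals3 at 0.32 (rho = 0.36) and with Cd68 at 0.01 (rho = 0.18).

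Markers of choroid plexus and ependyma (7 of 12 tested) were between -0.17 and 0.41 in 30C, between -0.18 and 0.54 in 30W, between -0.06 and 0.36 in 1C, between -0.28 and 0.00 in 1W and between -0.17 and -0.02 in Sal. The 2 arrays outside 1C with the highest Lgals3, 30C replicate 3 (6.31) and 30W replicate 3 (6.25), were also the 2 with the highest score of these markers, 0.41 and 0.54. In 1C the score was high on replicate 1 alone, where Lgals3 was lowest of the 3. Lgals3 correlated with the score at r = 0.54 (rho = 0.50). It was 0.86 without the 2 arrays whose Lgals3 level lay farthest from the Lgals3 median, 1C replicates 2 and 3. Those arrays had high Lgals3 with scores of -0.03 and -0.06, and the value of 0.86 holds only with them left out. With group means removed first and no array left out, r was 0.70. All 7 tested markers of choroid plexus and ependyma were higher in 1C than in 1W, with a median log2 difference of 0.11. In 30W against 1W 6 were positive and 1 negative (median 0.12), and none passed in either comparison. With the choroid plexus and ependymal score in the model, an alternative chosen once the values were known, the Lgals3 difference between 1C and 1W was 0.35. Meningeal and fibroblast markers (10 of 12 tested) were between -0.11 and 0.28 in 30C, between -0.08 and 0.07 in 30W, between -0.11 and 0.31 in 1C, between -0.08 and 0.00 in 1W and between -0.19 and 0.06 in Sal, and with them as a covariate the difference was 0.39. Lgals3 correlated with the mean of these meningeal and fibroblast markers at r = 0.45 (rho = 0.29). The value was 0.84 without 1C replicates 2 and 3, where that mean was 0.01 and -0.11. With group means removed and no array left out it was 0.44. In 1C against 1W 8 of the meningeal and fibroblast markers were positive and 2 negative (median 0.12), and none passed. Beyond these values, the part of such cells in the level of Lgals3 was not tested on any array.

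**Figure D4:**
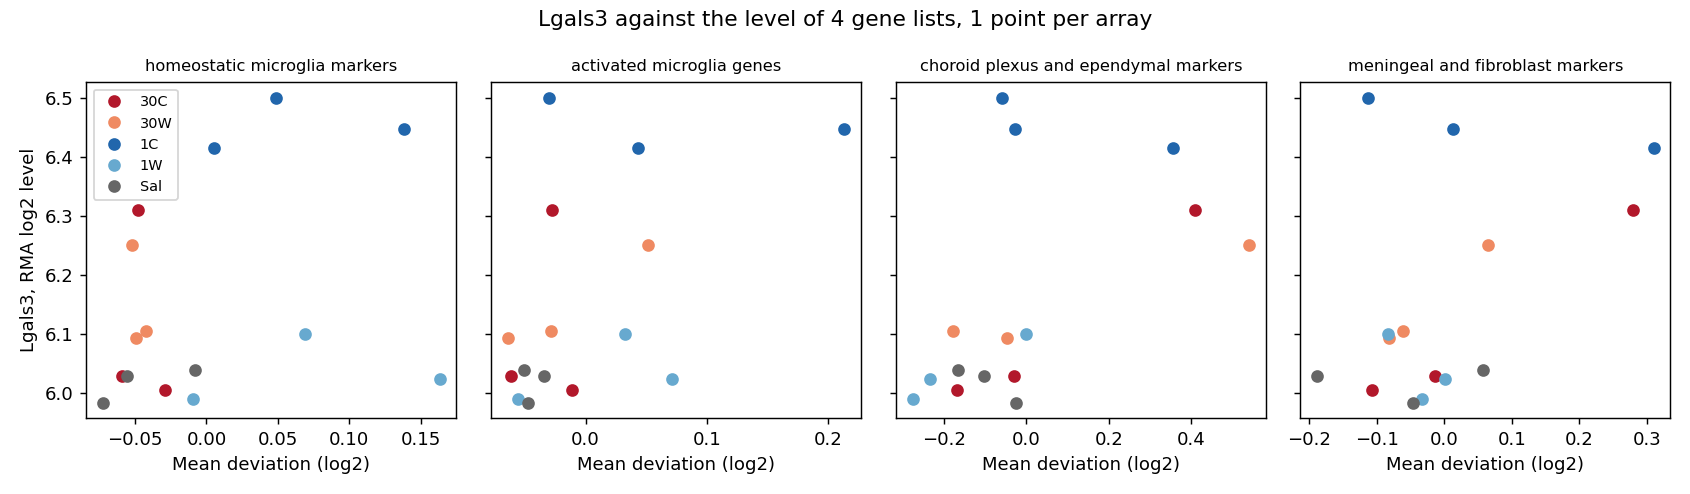
Lgals3 level (vertical axis, RMA log2) against the mean deviation of 4 gene lists from their means over the arrays (horizontal axes, log2), with 1 point per array coloured by group. The lists are homeostatic and activated microglia, choroid plexus and meningeal genes. The 1C points lie at 6.41 to 6.50, with homeostatic microglia scores of 0.01 to 0.14 and choroid plexus scores of -0.06 to 0.36, and the other arrays with the highest Lgals3, at 6.31 and 6.25, have choroid plexus scores of 0.41 and 0.54.

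Markers of border macrophages, monocytes and granulocytes (7 of 15 tested) were between -0.12 and 0.00 in 30C, between -0.06 and 0.02 in 30W, between -0.06 and 0.29 in 1C, between 0.00 and 0.08 in 1W and between -0.08 and -0.06 in Sal. The value of 0.29 belonged to 1C replicate 2. On 1C replicate 3, the array with the highest Lgals3, the score was -0.06. Lgals3 correlated with this score at r = 0.51 (rho = 0.325), and at 0.52 without the 2 arrays whose Lgals3 lay farthest from its median. Once group means were removed the value was 0.15. The part of such cells in the level of Lgals3 was not tested.

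Markers of oligodendrocytes, the myelin-forming cells, and of red blood cells also differed between some of the groups, though none passed. All 11 tested oligodendrocyte markers were lower in 1C than in 1W, with a median log2 difference of -0.19. Their mean deviation was between -0.14 and -0.07 in 30C, between -0.04 and 0.01 in 30W, between -0.08 and -0.04 in 1C, between -0.02 and 0.25 in 1W and between -0.03 and 0.14 in Sal. The 1C arrays thus lay below the 1W arrays, and the 30C arrays had the lowest mean score. With that score in the model the Lgals3 difference between 1C and 1W was 0.38, the Cd14 difference was 0.22 in place of 0.15 and the Cd68 difference -0.17 in place of -0.02.

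The 4 tested erythroid markers, of 7 listed, had a median log2 difference of -0.32 for 30C against 1C, of 0.36 for 1C against Sal and of 0.05 for 1C against 1W. Their mean deviation was between -0.28 and 0.03 in 30C, between -0.22 and 0.08 in 30W, between 0.10 and 0.24 in 1C, between 0.02 and 0.26 in 1W and between -0.20 and -0.09 in Sal, so the 1C arrays lay above those of 30C, 30W and Sal and overlapped with 1W. Lgals3 correlated with this score at r = 0.58 (rho = 0.52), and at 0.51 without the 2 arrays whose Lgals3 lay farthest from its median. Once group means were removed the value was 0.45. With the score in the model, the Lgals3 difference was -0.24 for 30C against 1C in place of -0.34, 0.33 for 1C against Sal in place of 0.44, and 0.39 for 1C against 1W. P2ry6 moved the other way, to -0.25 for 30C against 1C and 0.32 for 1C against Sal. Both models were alternatives chosen once the values were known. The part of blood or myelin content in these differences was otherwise not tested.

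All 11 markers of medium spiny neurons were lower in 30C than in 1C (median -0.12) and higher in 1C than in Sal (median 0.09). All 11 were also higher in 1W than in Sal (median 0.07), and 6 of 11 were positive in 1C against 1W (median 0.00). All 13 endothelial and mural markers were lower in 30C than in 1C (median -0.10). All 13 were also lower in 30W than in 1W (median -0.09) and higher in 1W than in Sal (median 0.13). Such shifts were thus not confined to comparisons with 1C. Lgals3 correlated with the mean of the endothelial and mural markers at r = 0.37 (rho = 0.29), and at 0.70 once group means were removed. None of these markers passed, and the part of such cells in the differences of Lgals3 was not tested.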

How the data were processed

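The deposited table holds log2 values that the authors made with RMA (background correction, quantile normalization and probe set summary), per the submitters' processing notes. Software, version and filters are not given there. Of 28826 probe sets (0 missing values), 15209 had 1 platform symbol, 306 several, and 13311 were unnamed here. Where a gene had several probe sets, the one with the highest mean was used. Genes were tested if it exceeded the 30th percentile of an array on 3 or more arrays.

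A linear model with group as the only term was fitted across 15 arrays (limma 3.58.1, R 4.3.3, residual degrees of freedom 10, prior 3.44). Two-sided p-values were adjusted by Benjamini-Hochberg over 11778 genes in each of 9 comparisons. The fit was also run on simulated data with independent noise, and nothing about these arrays is read from that run. A list score is the mean deviation of its tested genes from their own means.

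The genes and lists were chosen with earlier results of these data known. Genes named beside the 5 were, per list, the 2 with the largest difference between 1C and 1W, then 12 genes of known link (Itgax was not analysed here), and the 5 most alike to Lgals3. Tpm4 and Msn are the 2 most alike to P2ry6 and were named after their values were seen. Alternatives covered filter, probe set, normalization, variance, weights, arrays fitted, replicate block, marker covariates, threshold and leaving out each array. Precision is limited by having 3 arrays in a group. Deviations of same-numbered arrays from their group means correlated above 0.1 in all 3 pairs of 30C with 30W (r 0.10 to 0.16), and also of 30C with 1W, groups that were not compared (0.14 to 0.51). Since groups that were not compared correlated more strongly, these values do not show that the replicate numbers, from the titles, pair the samples. The main fit paired no samples in any comparison. A replicate block, over all arrays and over the 30C and 30W arrays alone, was fitted only among the alternatives.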

Additional observations from a re-analysis of the deposited data

How the results depend on the processing

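Over 29 alternatives Lgals3 kept its direction in 1C against 1W (0.35 to 0.45) and in 30C against 1C (-0.44 to -0.24, the smallest size with the erythroid score as a covariate). Leaving out 1 array at a time gave 0.39 to 0.45 and -0.44 to -0.28, the lowest without 30C replicate 3. Of all 1328 values of the 5 genes under alternatives, 1303 moved by no more than the gene's residual SD and 25 moved by more. That SD was 0.06 to 0.15, larger than some of the differences, so a value that moved by less can still change sign. Of the 1328 values 61 changed sign, in differences of at most 0.17 in size. No gene had passed in the main fit, so no call could be lost. Leaving out 1 array at a time, the count among the 5 genes lay between 0 and 1 for 1C against 1W, 30C against 1C and 1C against Sal, being 1 (Lgals3) without 30C replicate 3. That array has the highest Lgals3 outside 1C and the genes were selected on these comparisons, so nothing is read from that count. It was 0 for the other comparisons and under every other alternative run. The count over all genes lay between 0 and 2 for 30C against 1C, and between 0 and 1 for 30C against 30W, 30W against 1W, 1C against 1W and 1C against Sal. It was 1, 2 and 3 with array weights for 30C against 30W, 30C against 1C and 30W against 1W. With the cortical score it was 1 for 30C against 30W and for 30C against 1C, and it was 1 for 30C against 30W with the meningeal score or at an adjusted p under 0.10. Of the 8 comparisons, all 3 same-numbered pairs had an r above 0.1 in 30C against 30W alone, and a fit of those arrays with the block, added once the values were known, left Lgals3 at -0.03 and called 0 genes. With the replicate block the Lgals3 differences were again 0.42 and -0.34 and 0 genes passed in any comparison, so it changed no call. Without 1C replicate 2 the Cd14 difference between 1C and 1W was 0.10 and the Gpnmb one -0.07. The filter at the 50th percentile left Lgals3, Cd68 and Cd14 untested, since their levels lie in the lower part of the arrays, which limits what can be measured of them.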
